A study of Mus musculus with 6 samples.

Results

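Fatty acids reach a liver cell along 2 routes: as free acids that cross the plasma membrane, and inside lipoprotein particles whose triglyceride is hydrolysed by a lipase or which are taken up by a receptor. Inside the cell, small cytosolic proteins of the FABP family bind the acids and shuttle them to the enzymes that activate, burn or store them. The 10 genes described here encode the parts of both routes. They are the scavenger receptor and fatty acid translocase gene Cd36, the transport protein genes Slc27a2, Slc27a4 and Slc27a5, the binding protein genes Fabp1, Fabp2, Fabp4 and Fabp5, the lipoprotein lipase gene Lpl and the very low density lipoprotein receptor gene Vldlr. The rule that defines them uses gene names and no measured value, but the names were chosen with earlier results of these data known. A probe set of the array counted as theirs if the platform annotation gave it exactly 1 gene symbol and that symbol was among the 10. This found 23 of 34945 probe sets with 1 symbol, and the 10 genes are among 18193 genes so represented.

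The livers came from male C57BL/6 mice, an inbred laboratory strain, given either a normal diet or one deriving 60% of calories from fat. Feeding started when the animals were 8 weeks old and lasted 12 weeks, with 6 mice on each diet. RNA of whole liver tissue was pooled from 2 mice per array, as the design text is read here, and hybridised to Affymetrix whole-genome mouse arrays, 3 for each diet. No genotype or drug separates the groups, and the array of a pool is the replicate (n = 3 per diet), so p-values rest on the spread between pools, and the spread between single mice was not measured. Over all probe sets the 3 high-fat arrays correlated with each other at a Pearson's r of 0.994 to 0.995 and the 3 normal diet arrays at 0.984 to 0.992, and normal diet 3 had the lowest mean r with the high-fat arrays (0.974, against 0.986 and 0.987 for the other two). A check of RNA integrity, the 3′ control probe set of Gapdh minus its 5′ one on the log2 scale, gave 0.36 for normal diet 1. It gave -0.19 to 0.0086 for the remaining arrays. Each gene's difference is given without normal diet 3, and without other arrays, where that array decides it.

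Values are log2 expression levels, so a difference of 1 is a doubling of the signal, and each difference is the high-fat mean minus the normal diet mean, with the standard error (SE) from limma after the ± sign. A gene was tested if its brightest probe set lay above the 40th percentile of an array (3.48 to 3.59) on at least 3 of 6 arrays. All 10 genes met this on every array. Of their probe sets 17 met it and 6 did not. A gene counts as called at a Benjamini-Hochberg adjusted p below 0.05 over 14071 genes. Of 8 hepatocyte markers, Alb, Apoa1 and Ttr lay between 13.67 and 14.49 on every array, while Ass1 read 3.66 to 3.99.

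Among the 10 genes limma called 2 higher under the high-fat diet, Fabp2 and Slc27a4, called 0 lower and did not call 8. The count called higher was 0 without any 1 high-fat array, and 1, 3 and 4 without normal diet 1, 2 and 3. With all 6 arrays 5.87% of all tested genes were called higher (826 genes) and 1.73% lower (244 genes). Omitting 1 high-fat array cut the 826 to between 123 and 213, so calls became fewer among genes in general, not only among the 10. Omitting 1 normal diet array left 763 to 933. Calls reported below as lost without a high-fat array are to be read beside this general drop. In 5 of the 10 the diets were fully separate, Cd36, Slc27a4, Fabp1, Fabp2 and Lpl, with every high-fat array above every normal diet array. The share among all tested genes was 21.1%. Cd36 (limma unadjusted p = 0.0106) and Lpl (limma unadjusted p = 0.0085), both higher under the high-fat diet, were below 0.05 only before adjustment. The mean was higher under the high-fat diet in 7 of the 10, against 50.5% of all tested genes. The median difference of the 10 was 0.49, and that of all tested genes was 0.0033.

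**Figure D1:**
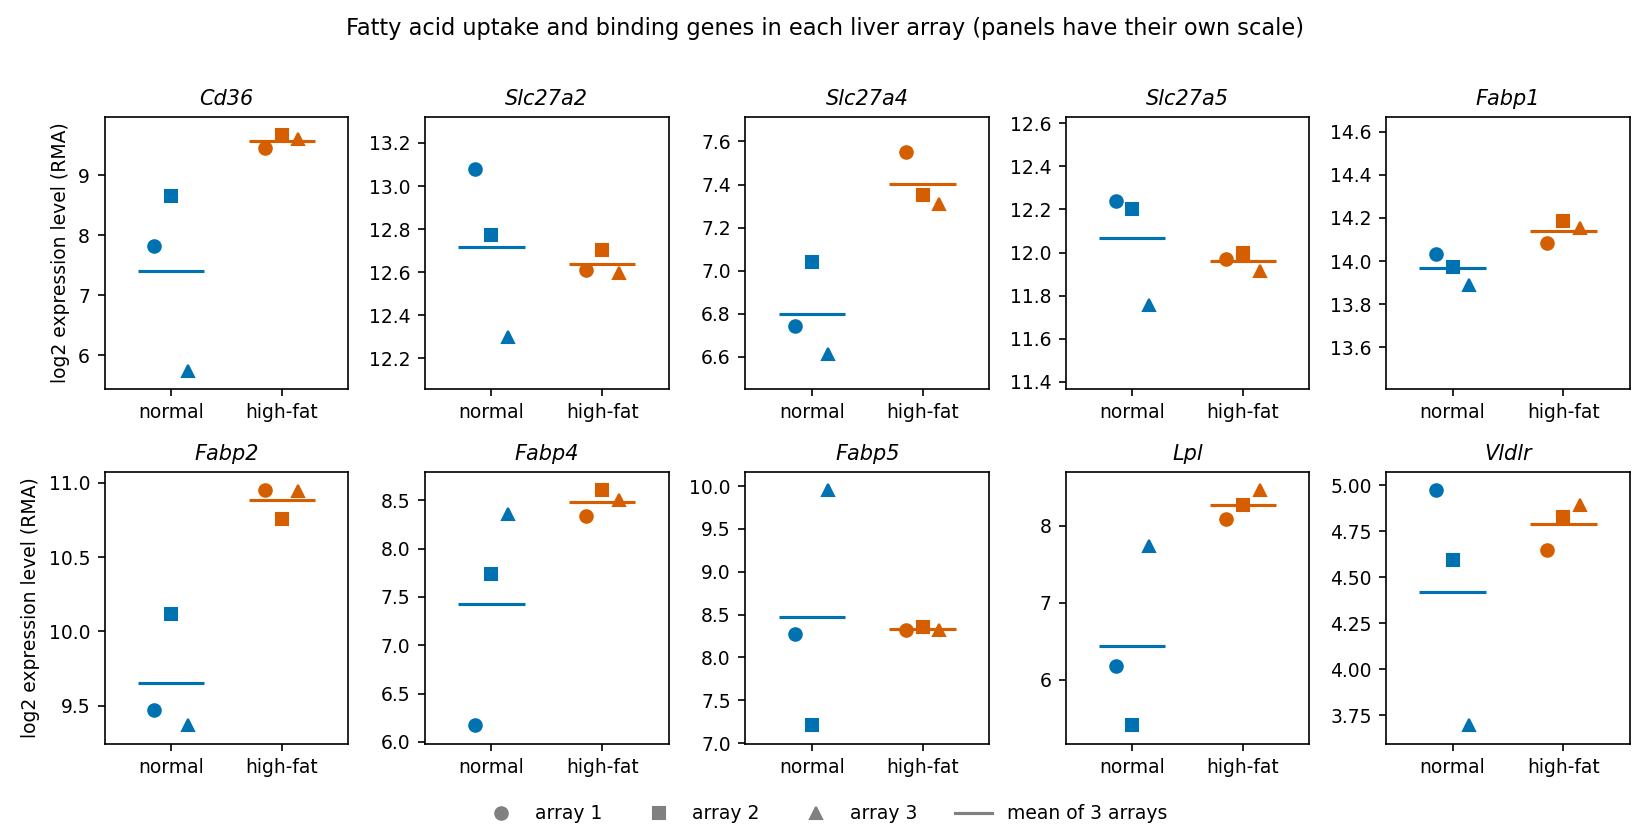
Log2 expression level (vertical axis) of each of the 10 genes in the 3 normal diet arrays (blue) and the 3 high-fat arrays (orange); the marker shape gives the array number within its diet and the line the mean, and each panel has its own scale. The high-fat arrays lie close together in every panel, within 0.38 at most, while Cd36, Fabp4, Fabp5 and Lpl spread over more than 2 log2 units in the normal diet arrays.

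Promoter sequence is printed for Fabp2 and Slc27a4, the called genes, and for Cd36 and Fabp1, whose windows hold a match to the direct repeat described here. The windows run from 250 bases before to 50 after a RefSeq gene start of GRCm38.p6, 5′ to 3′ on the gene's strand, and 6 of the 10 genes matched the table. Slc27a5, Fabp4, Fabp5 and Lpl did not. The motif AGGTCANAGGTCA is the direct repeat bound by PPAR with RXR and by HNF4. It was searched on both strands with up to 2 mismatches, beside its single repeat AGGTCA, the TATA box as TATAAA and the CCAAT box as CCAAT without mismatches. The single repeat lies within the direct repeat, so their matches can overlap. Capitals mark every match.
Fabp2, chr3:122894822-122895121, plus strand: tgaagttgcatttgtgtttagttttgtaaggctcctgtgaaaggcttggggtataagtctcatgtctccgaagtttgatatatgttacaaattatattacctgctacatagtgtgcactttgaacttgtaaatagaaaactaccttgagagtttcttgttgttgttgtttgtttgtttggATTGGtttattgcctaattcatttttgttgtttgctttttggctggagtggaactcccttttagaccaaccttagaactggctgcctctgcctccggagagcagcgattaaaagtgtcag
Slc27a4, chr2:29802384-29802683, plus strand: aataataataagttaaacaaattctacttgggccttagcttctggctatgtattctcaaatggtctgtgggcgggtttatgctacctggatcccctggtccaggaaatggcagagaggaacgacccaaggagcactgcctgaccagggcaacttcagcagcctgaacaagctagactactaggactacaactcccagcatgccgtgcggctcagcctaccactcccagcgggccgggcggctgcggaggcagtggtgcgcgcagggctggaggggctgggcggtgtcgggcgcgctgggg
Cd36, chr5:17835847-17836146, minus strand: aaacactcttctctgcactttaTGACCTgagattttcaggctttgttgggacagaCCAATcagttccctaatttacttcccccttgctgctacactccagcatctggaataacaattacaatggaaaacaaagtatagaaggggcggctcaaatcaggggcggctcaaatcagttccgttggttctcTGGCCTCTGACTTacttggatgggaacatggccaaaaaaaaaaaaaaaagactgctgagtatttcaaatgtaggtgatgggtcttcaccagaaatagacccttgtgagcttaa
Fabp1, chr6:71199629-71199928, plus strand: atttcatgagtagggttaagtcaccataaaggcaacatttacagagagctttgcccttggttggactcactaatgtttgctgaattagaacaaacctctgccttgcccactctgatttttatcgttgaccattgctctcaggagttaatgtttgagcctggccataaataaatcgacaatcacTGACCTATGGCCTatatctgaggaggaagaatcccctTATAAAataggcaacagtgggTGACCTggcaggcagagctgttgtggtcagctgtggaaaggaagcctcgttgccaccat

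The Fabp1 window held TGACCTATGGCCT, a match to the direct repeat on the reverse strand with 1 mismatch, whose first base is at -67 from the start. Its TGACCT letters are also a single repeat on the reverse strand, a second lies at -9, and a TATA box lies at -30. The Cd36 window held TGGCCTCTGACTT, a reverse-strand match with 2 mismatches at -63, a CCAAT box at -195 and a separate single repeat at -228. A direct repeat with up to 2 mismatches occurred in 3.86% of 32851 promoter windows of the table, a single repeat in 16.3%, a TATA box in 13.6% and a CCAAT box in 37.4%. The Fabp2 window held a CCAAT box on the reverse strand at -70, and the Slc27a4 window held none of the 4 motifs. Of the windows not printed, that of Slc27a2 held a single repeat, 1 of the 2 of Vldlr a CCAAT box and the other none. The Cd36 window belongs to a start inside the annotated gene, not to its outermost start. Fabp1 had the match with the fewest mismatches, and the windows of Fabp2 and Slc27a4 held no direct repeat.

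Cd36 encodes a membrane glycoprotein that binds long-chain fatty acids and oxidised lipoproteins, and in mouse liver it is known as a target of the nuclear receptor PPARgamma. Its probe set 1423166_at read 7.82, 8.65 and 5.74 in normal diet arrays 1, 2 and 3, and 9.46, 9.67 and 9.60 in high-fat arrays 1, 2 and 3. Every high-fat array was above every normal diet array, and normal diet 3 was far below the others. The gap between the highest and lowest normal diet array was 2.91, a 7.51-fold range, against 0.20 among the high-fat arrays. The mean was 7.41 ± 1.5 (SD, n = 3) under the normal diet and 9.58 ± 0.10 (SD, n = 3) under the high-fat diet, 4.51-fold apart, and the difference of 2.17 ± 0.64 was not called (limma adjusted p = 0.0832).

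The 2 other Cd36 probe sets gave the same order of arrays within the normal diet. Probe set 1450883_a_at read 7.15, 8.83 and 5.56 against 9.42, 9.75 and 9.47, and 1450884_at read 5.09, 6.47 and 3.89 against 7.63, 7.62 and 7.25. In a fit of probe sets one by one, over 27399 of them, the differences were 2.37 ± 0.69 (limma adjusted p = 0.0954) and 2.35 ± 0.56 (limma adjusted p = 0.0559). The diets were thus separate in all 3 Cd36 probe sets, against 17.5% of all tested probe sets, and none of the 3 was called. Of the 17 tested probe sets of the 10 genes 1 was called higher, that of Fabp2, against 4.02% of all tested probe sets. With normal diet 2 left out the Cd36 difference was 2.80 and called (limma adjusted p = 0.0352). With normal diet 3 left out it was 1.34 and called (limma adjusted p = 0.0120), so normal diet 3 moves the difference by over 1.5 times. Without normal diet 1 or any 1 high-fat array Cd36 was not called (limma adjusted p between 0.101 and 0.216).

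Of the fatty acid transport proteins, Slc27a4 was called. It encodes FATP4, a transport protein with acyl-CoA synthetase activity that is best known from the small intestine and skin. Its single probe set, 1424441_at, read 6.74, 7.04 and 6.61 under the normal diet and 7.55, 7.35 and 7.31 under the high-fat diet. All high-fat arrays were above all normal diet arrays, and the gap between the groups, from 7.04 to 7.31, was narrower than the range within the normal diet. The mean rose 1.52-fold, from 6.80 ± 0.22 to 7.40 ± 0.13 (SD, n = 3 each), a difference of 0.61 ± 0.14 (limma adjusted p = 0.0416). In the fit of single probe sets the same values gave an adjusted p of 0.0508. The call also ended after quantile normalization (0.48), after cyclic loess (0.51) and without any 1 array other than normal diet 2 (limma adjusted p from 0.0571 to 0.146).

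Slc27a2 and Slc27a5 encode FATP2 and FATP5, the transport proteins typical of hepatocytes. FATP5 also activates bile acids to their CoA esters. Slc27a2 read 13.08, 12.77 and 12.30 under the normal diet and 12.61, 12.70 and 12.60 under the high-fat diet. Slc27a5 read 12.24, 12.20 and 11.76, and 11.97, 12.00 and 11.92. In both genes the high-fat arrays lay inside the range of the normal diet arrays, with normal diet 1 the highest and normal diet 3 the lowest array of the 6. Neither was called: the differences were -0.08 ± 0.19 for Slc27a2 (limma adjusted p = 0.809) and -0.10 ± 0.14 for Slc27a5 (limma adjusted p = 0.665). The 95% interval of limma's fit ran from -0.52 to 0.36 for Slc27a2 and from -0.44 to 0.23 for Slc27a5, so a modest change of either sign lies within both intervals. Normal diet 1 and 3 decided the size: without normal diet 3 the differences were -0.29 and -0.26, and without normal diet 1 they were 0.10 and -0.017. After cyclic loess they were -0.21 and -0.23, and neither gene was called in any of these fits.

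Of the binding proteins, Fabp2 was called with the smallest p of the 10 genes. Fabp2 encodes the intestinal fatty acid-binding protein, a cytosolic carrier named for its abundance in enterocytes. Probe set 1418438_at read 9.47, 10.11 and 9.37 under the normal diet and 10.95, 10.76 and 10.94 under the high-fat diet. The groups did not overlap, and normal diet 2 was the closest to the high-fat arrays, as it was for Cd36 and Slc27a4. The mean rose 2.35-fold, from 9.65 ± 0.405 to 10.88 ± 0.108 (SD, n = 3 each), a difference of 1.23 ± 0.20 (limma adjusted p = 0.0141). The enterocyte markers Vil1, Lct and Cdh17 were below the level filter on all 6 arrays, and Alpi, at 3.54 to 4.14, was not called. Leaving out any 1 high-fat array ended the Fabp2 call (limma adjusted p between 0.0543 and 0.0754) while its difference stayed between 1.2 and 1.3.

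Fabp1 encodes the liver fatty acid-binding protein, one of the most abundant proteins of the hepatocyte cytosol. Probe set 1417556_at read 14.03, 13.97 and 13.89 under the normal diet and 14.08, 14.19 and 14.15 under the high-fat diet. The highest reading of any probe set was between 14.47 and 14.68 on the 6 arrays, so Fabp1 was near the top of the scale. The difference of 0.18 ± 0.09 was not called (limma adjusted p = 0.270), although the groups did not overlap, and it was 0.065 after cyclic loess and 0.10 where both probe sets were averaged. The second probe set, 1448764_a_at, ran from 13.73 to 13.96 and from 13.77 to 13.93 under the normal and the high-fat diet, which overlapped, with a difference of 0.03 ± 0.11.

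Fabp4 and Fabp5 encode the binding proteins first described in adipocytes and epidermis, and both are also made by macrophages and some endothelial cells. In the RefSeq gene table of GRCm38.p6 they lie in a row of 5 neighbouring genes, Fabp5, Pmp2, Fabp9, Fabp4 and Fabp12. Fabp4 probe set 1417023_a_at read 6.17, 7.74 and 8.36 in normal diet arrays 1, 2 and 3, and 8.33, 8.60 and 8.50 in the high-fat arrays. Normal diet 3 lay inside the high-fat range, and normal diet 1 was 4.57-fold below normal diet 3. The difference of 1.06 ± 0.49, 2.08-fold, was not called (limma adjusted p = 0.210), and it was 0.49 with the mean of the probe sets. Leaving out normal diet 1 gave 0.43, and without normal diet 3 it was 1.53 and called (limma adjusted p = 0.0495). A second probe set, 1451263_a_at, had the same order of normal diet arrays, with 4.60, 5.89 and 6.53 against 6.71, 6.76 and 6.65. There normal diet 3 lay below all high-fat arrays, and the difference of 1.04 ± 0.42 was not called (limma adjusted p = 0.185). A further pair of Fabp4 probe sets was below the level filter on every array.

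Fabp5 had a wide spread between normal diet arrays and, in its brightest probe set, almost none between high-fat arrays. Probe set 1416021_a_at read 8.27, 7.21 and 9.95 under the normal diet and 8.32, 8.36 and 8.32 under the high-fat diet. The high-fat arrays sat within 0.045 of each other, and the normal diet arrays reached from far below to far above them, a 6.71-fold range. The SD was 1.38 under the normal diet and 0.024 under the high-fat diet (n = 3 each). The mean difference was -0.14 ± 0.59 (limma adjusted p = 0.894), with a 95% interval from -1.53 to 1.24. The second probe set, 1416022_at, repeated the order and the wide spread of the normal diet arrays, with 6.46, 6.02 and 8.55 against 7.01, 7.08 and 6.84. Its high-fat arrays were less close, within 0.24 of each other (SD 0.12, n = 3). The sign of the Fabp5 difference turned without normal diet 3, where it was 0.59, and the second probe set was then called at 0.74 (limma adjusted p = 0.0364). The other neighbours did not pass: Fabp12 differed by -0.28 ± 0.10, Pmp2 by -0.03 ± 0.10, and Fabp9 was below the level filter on every array.

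Lpl encodes lipoprotein lipase, which frees fatty acids from triglyceride in circulating particles. It is made chiefly by adipose tissue, muscle and macrophages, and is low in the hepatocytes of adult mice. Probe set 1415904_at read 6.18, 5.41 and 7.74 under the normal diet and 8.09, 8.28 and 8.46 under the high-fat diet. The groups did not overlap, and normal diet 3 was the nearest to the high-fat arrays, the reverse of its position for Cd36. The means of 6.44 ± 1.19 and 8.27 ± 0.19 (SD, n = 3 each) were 3.57-fold apart, a difference of 1.83 ± 0.52 that was not called (limma adjusted p = 0.0752). It passed without normal diet 3, at 2.48 (limma adjusted p = 0.00143), and with array weights, at 2.28 (limma adjusted p = 0.00898). Over left-out arrays the limma adjusted p of Lpl ran from 0.00143 to 0.210. The second probe set, 1431056_a_at, read 5.01, 4.67 and 5.84 against 5.78, 6.47 and 6.59. There normal diet 3 overlapped with high-fat 1, and the difference was 1.11 ± 0.33.

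Vldlr encodes a receptor of the LDL receptor family that binds triglyceride-rich lipoproteins and helps lipoprotein lipase act on them. Its brightest probe set, 1434465_x_at, is of a design class whose probes may also match unrelated transcripts. It read 4.97, 4.59 and 3.70 under the normal diet and 4.65, 4.83 and 4.89 under the high-fat diet, so the groups overlapped and normal diet 3 was again lowest. The difference of 0.37 ± 0.30 was not called (limma adjusted p = 0.448), and it was 0.0067 without normal diet 3. Leaving out normal diet 1 gave 0.65, and array weights gave 0.20. Probe set 1438258_at, near the level filter at 3.64 to 3.99, differed by -0.17 ± 0.11. Below the filter, 1417900_a_at read 2.43, 2.69 and 2.13 against 3.05, 3.19 and 3.30, a separation of the diets that was not tested, while the means of the other 3 Vldlr probe sets differed by 0.02 to 0.42.

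**Figure D2:**
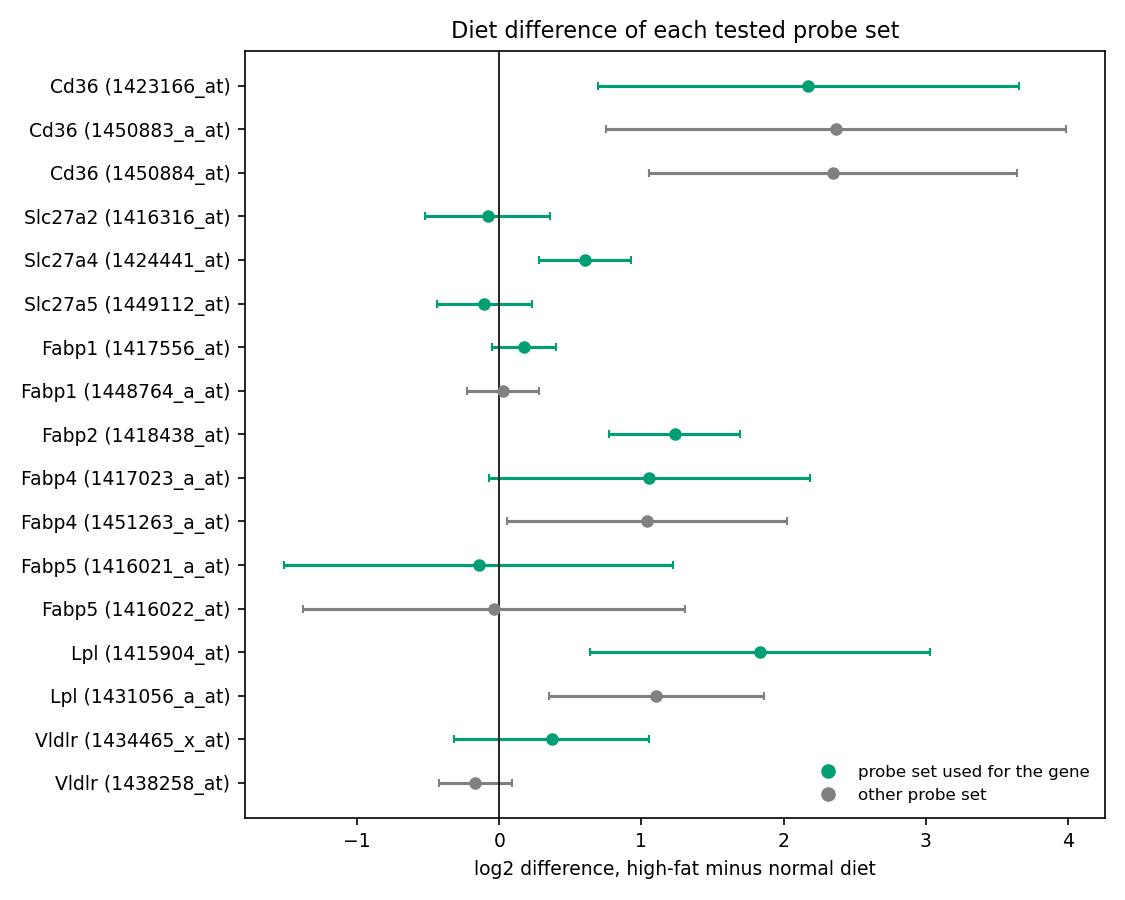
Log2 difference, high-fat minus normal diet (horizontal axis), of the 17 tested probe sets of the 10 genes with the 95% interval of limma's fit; green marks the probe set that stands for the gene. The 3 Cd36 and 2 Fabp4 probe sets lie close together, the 2 Lpl probe sets are at 1.83 and 1.11, and the 2 Vldlr probe sets lie on opposite sides of 0.

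Across the 10 genes the spread was larger under the normal diet than under the high-fat diet. The SD over 3 arrays was larger in the normal diet group in 10 of 10 genes, against 66.7% of all tested genes. It exceeded 1 in 4 of the 10, Cd36, Fabp4, Fabp5 and Lpl, against 1.02% of all tested genes. The median SD of the 10 was 0.53 under the normal diet and 0.106 under the high-fat diet, where the medians of all tested genes were 0.166 and 0.117. Since limma takes 1 variance per gene over both groups, the normal diet arrays contributed most of the residual variance of these genes.

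The normal diet arrays did not keep 1 order across the genes. Normal diet 3 was the lowest of the 3 in 7 genes, by 3.83 below the high-fat mean for Cd36 and by 1.09 for Vldlr. The same array was the highest of the 3 for Fabp4, Fabp5 and Lpl, at 0.12 below, 1.62 above and 0.53 below the high-fat mean. Normal diet 2 was lowest for Fabp5 and Lpl, and normal diet 1 for Fabp4. A left-out array therefore moved these genes in opposite directions: without normal diet 3 the difference was smaller for Cd36 and larger for Fabp4 and Lpl.

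**Figure D3:**
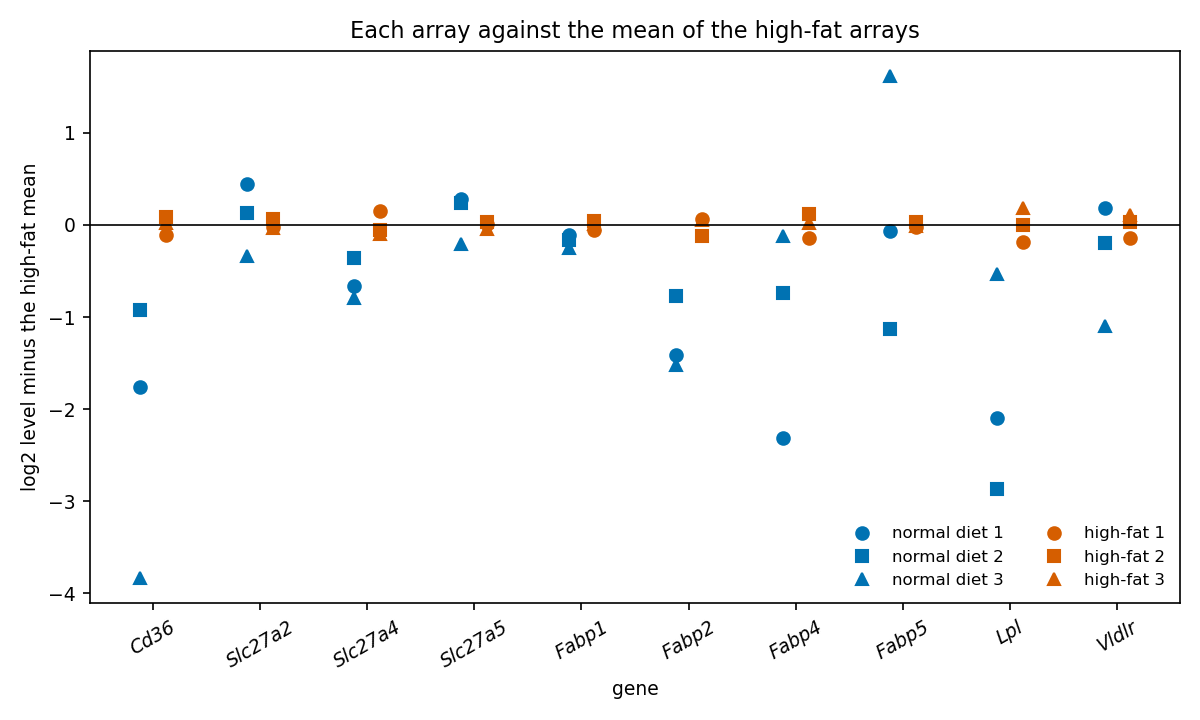
Log2 level of each array minus the mean of the 3 high-fat arrays (vertical axis) for the 10 genes; blue marks are normal diet arrays and orange marks high-fat arrays, with the shape giving the array number. Normal diet 3 (blue triangle) is at the bottom for Cd36 (-3.83) and at the top for Fabp5 (1.62).

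**Figure D4:**
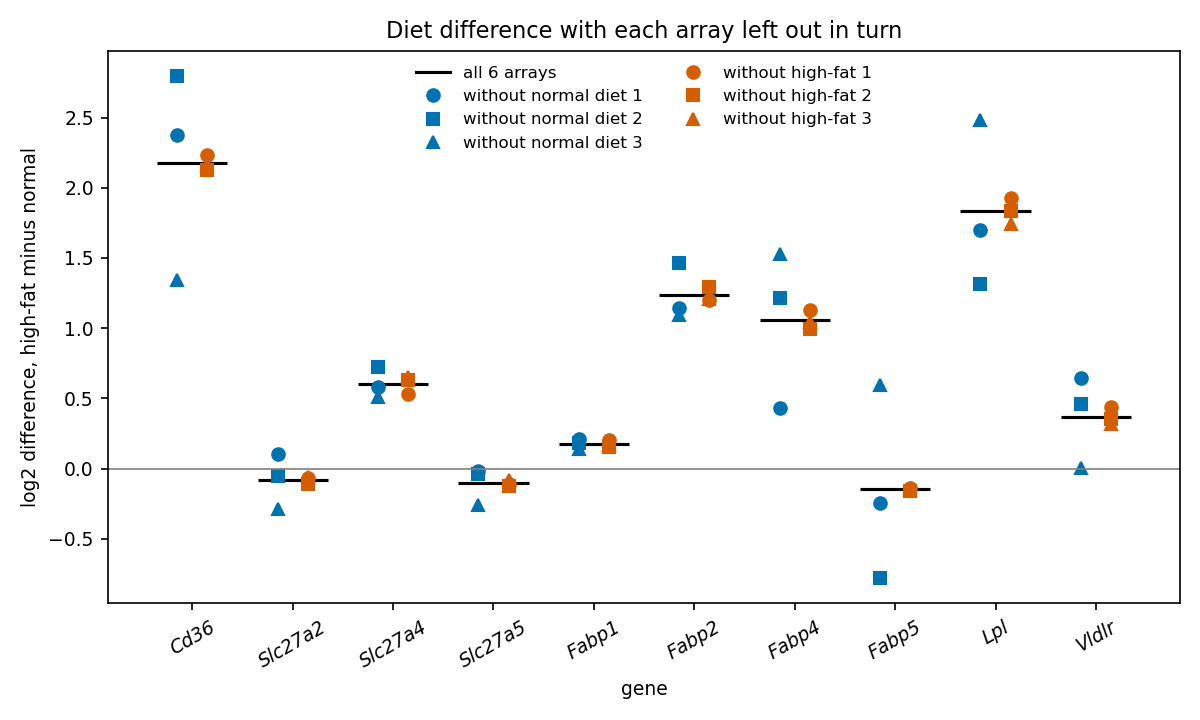
Log2 difference, high-fat minus normal diet (vertical axis), of each gene with all 6 arrays (black line) and with 1 array left out (blue, a normal diet array; orange, a high-fat array). The Cd36 difference runs from 1.34 to 2.80, the Lpl difference from 1.32 to 2.48, and the Fabp5 difference crosses 0, from -0.78 to 0.59.

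Cells other than hepatocytes carry several of these genes, and in whole tissue a change in the number of cells of a type and in their RNA per cell cannot be told apart. Of 11 macrophage and Kupffer cell markers, 7 were called higher and 0 lower. Cd68 differed by 1.28 ± 0.13 and Csf1r by 0.80 ± 0.12. The Kupffer cell markers were divided. Cd5l (0.81 ± 0.11) and Vsig4 (0.71 ± 0.11) were called higher, with no overlap of the groups. Timd4 (-0.15 ± 0.17), Clec4f (0.07 ± 0.18) and Marco (-0.06 ± 0.47) were not called, and their groups overlapped. C1qa was not called either (0.54 ± 0.14). The mean level of the list was 7.39 to 7.66 in the normal diet arrays and 8.05 to 8.14 in the high-fat arrays. The count of 7 was 4 after quantile normalization and 1 or 2 without any 1 high-fat array. Of 7 genes of lipid-associated macrophages, 4 were called higher and 0 lower, among them Clec7a (2.41 ± 0.20) and Mmp12 (2.12 ± 0.14), and the mean level was 5.23 to 5.54 and 6.36 to 6.44. Trem2, a receptor gene that defines these cells, went the other way without being called: it differed by -0.43 ± 0.15 (limma adjusted p = 0.117), with every high-fat array below every normal diet array. Cd9 differed by 1.08 ± 0.32 and was not called either. Of 9 endothelial markers 1 was called, Lyve1, at 1.36 ± 0.23, with mean levels of 6.27 to 6.61 and 6.79 to 6.90. Whether these cells take part in the Fabp4, Fabp5, Lpl and Cd36 values was not tested. The adipocyte genes Adipoq and Lep were below the level filter on all 6 arrays. Of the 4 adipocyte markers that were tested limma called 0, and 1 had an unadjusted p below 0.05, Retn, the resistin gene, which was lower under the high-fat diet (-0.40 ± 0.14). Of 8 stellate cell markers 3 were called higher, Dcn, Col3a1 and Lrat, and of 8 hepatocyte markers 1 was called lower, Hnf4a. Cps1 (-0.28 ± 0.09) and Tat (-0.26 ± 0.11) were also lower in every high-fat array, without being called. Alb (0.07 ± 0.09) and Ttr (0.13 ± 0.09) were higher in every high-fat array, without being called. Without any 1 high-fat array the counts were 2 or 3 for the lipid-associated macrophage genes, 0 for the endothelial markers and 0 or 1 for the stellate markers. Calls over all genes dropped in these fits as well, from 826 to between 123 and 213 higher. By limma 0 of 4 cholangiocyte, 0 of 2 skeletal muscle, 0 of 3 pancreas and 0 of 3 lymphocyte markers were called, with Epcam and Ckm at an unadjusted p below 0.05.

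Lipoprotein lipase works with partners, and 3 of 11 tested genes of that group were called higher and 0 lower. Gpihbp1 encodes the protein that carries the lipase to the capillary surface. It read 7.48, 7.97 and 7.58 under the normal diet and 8.43, 8.18 and 8.41 under the high-fat diet. It rose 1.58-fold (0.66 ± 0.15, limma adjusted p = 0.0407), with no overlap of the groups. Apoc2 encodes the essential activator of the lipase and rose 2.17-fold, from 10.96, 11.27 and 11.49 to 12.64, 12.17 and 12.26 (1.12 ± 0.18, limma adjusted p = 0.0139). Angptl8, whose product takes part in inhibiting the lipase, rose 2.35-fold, from 7.48, 7.81 and 7.94 to 8.70, 9.40 and 8.84 (1.23 ± 0.20, limma adjusted p = 0.0158). These 3 called genes, of an activator, an inhibitor and the endothelial carrier, were each higher in every high-fat array than in any normal diet array. Such a separation was found in 21.1% of all tested genes.

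Other genes of the lipase group did not pass. Angptl4, a further inhibitor, differed by -0.24 ± 0.26, and Lmf1 and Sel1l, needed for the folding of the lipase, by -0.16 ± 0.16 and -0.18 ± 0.45. Lipg, which encodes endothelial lipase, differed by 0.97 ± 0.44, and Apoc3 and Apoa5 by 0.06 ± 0.09 and 0.13 ± 0.12. Apoe differed by 0.26 ± 0.10. Lipg and Apoe were also higher in every high-fat array than in any normal diet array, without being called. Leaving out any 1 high-fat array ended the Apoc2 call (limma adjusted p between 0.0514 and 0.0631), and leaving out high-fat 3 ended the Angptl8 call (limma adjusted p = 0.0665). The Gpihbp1 call ended after quantile normalization (0.52), after cyclic loess (0.54), under array weights (0.56), or without any 1 array other than normal diet 2 (limma adjusted p between 0.0577 and 0.145).

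**Figure D5:**
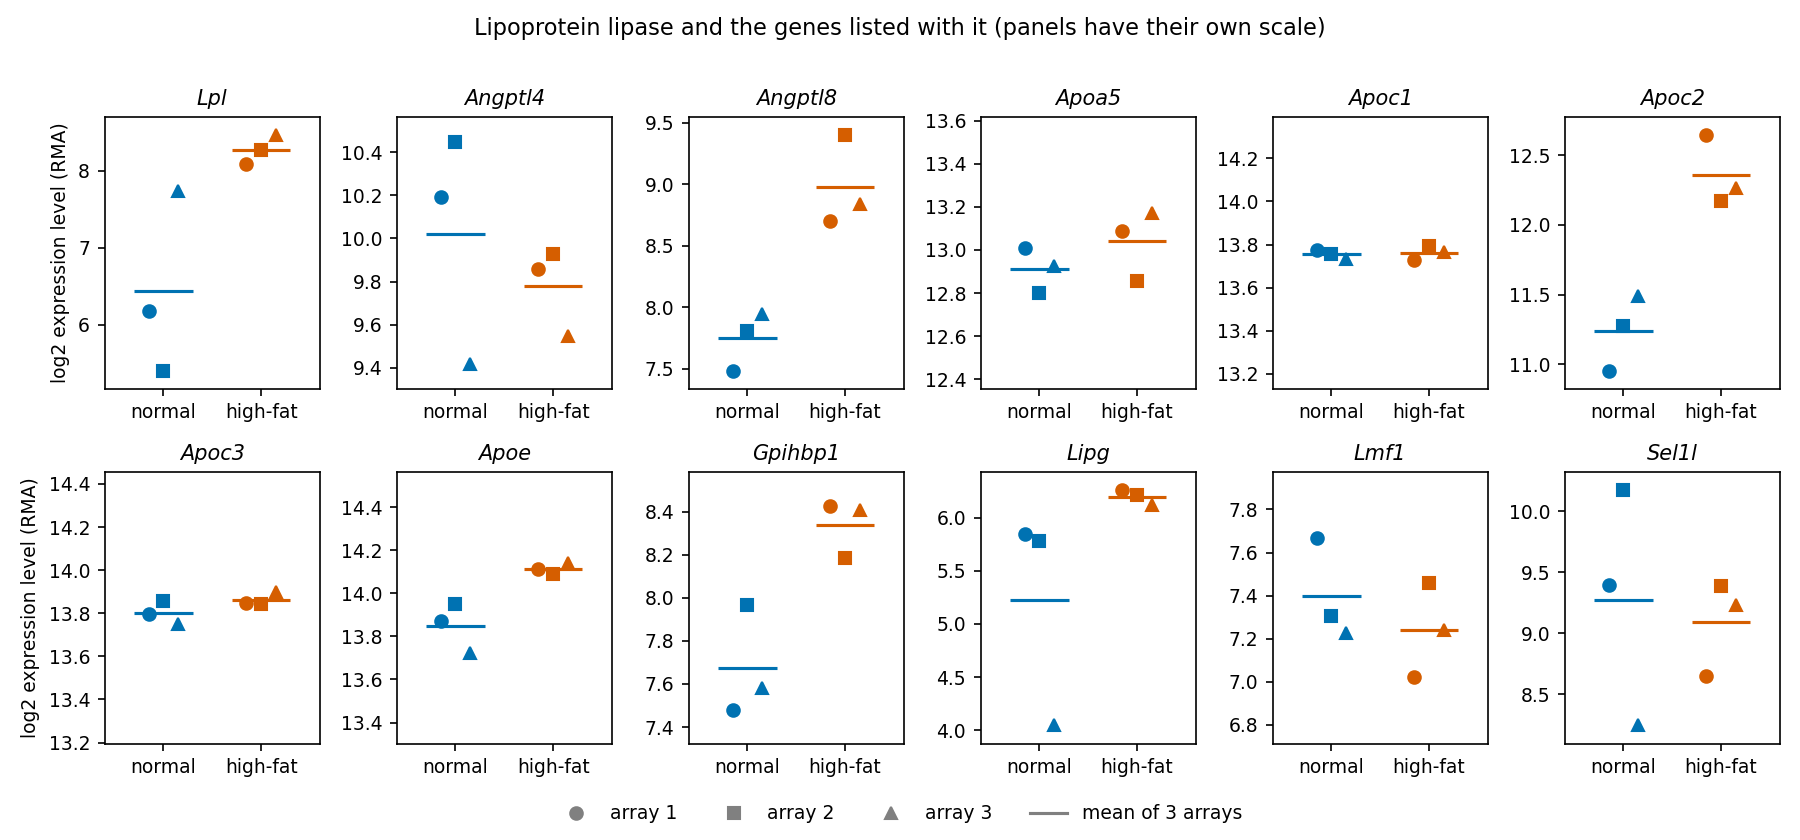
Log2 expression level (vertical axis) of Lpl and 11 genes of its cofactors, inhibitors and relatives in the normal diet (blue) and high-fat (orange) arrays; shapes give the array number, lines the means, and each panel has its own scale. Angptl8, Apoc2, Gpihbp1, Apoe and Lipg are higher in all high-fat arrays, while Angptl4, Lmf1 and Sel1l overlap between the diets.

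Of 6 further tested genes of the transport and binding protein families 0 were called, by limma, with 1 at an unadjusted p below 0.05, Fabp12. Of 8 tested genes of acyl-CoA synthesis and binding 1 was called, Acsl3, an acyl-CoA synthetase gene that traps entering fatty acids as CoA esters (1.40 ± 0.18). Leaving out high-fat 3 ended the Acsl3 call (limma adjusted p = 0.0507), the mean of its probe sets gave a difference of 0.84, and Acsl3 was not tested with probe sets without a suffix letter. Acsl5 was 1.74-fold higher without passing (0.80 ± 0.20, limma adjusted p = 0.0538). Of 9 genes of CD36 partners and related receptors 0 were called, by limma, with 1 at an unadjusted p below 0.05, Zdhhc4. Of 8 lipoprotein receptor genes and their regulators 1 was called, Mylip, which encodes the ubiquitin ligase IDOL that marks VLDLR and the LDL receptor for breakdown (0.61 ± 0.14, limma adjusted p = 0.0465). The Mylip call ended after quantile normalization, after cyclic loess, with trend and robust variance, with array weights, with probe sets without a suffix letter and without any 1 array other than normal diet 2. Lsr, the gene of a liver receptor for triglyceride-rich lipoproteins, differed by -0.67 ± 0.19 with every high-fat array below every normal diet array, and was not called (limma adjusted p = 0.0791). With its probe sets averaged Lsr differed by -0.26. Lrpap1, which encodes a chaperone of these receptors, differed by 0.28 ± 0.10 and was not called.

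Among 13 nuclear receptors and other factors known to act on these genes, 1 was called higher and 2 lower. Pparg, the receptor gene known to drive Cd36, read 6.08, 6.91 and 5.23 against 7.65, 7.77 and 7.69 and differed by 1.63 ± 0.37 (limma adjusted p = 0.0407). Its normal diet arrays had the same order as those of Cd36, and also of Fabp2 and Slc27a4. Whether the receptor acts on any of these genes here was not tested. Hnf4a, the hepatocyte factor known to act on Fabp1, read 11.88, 11.88 and 11.89 against 11.01, 11.31 and 11.25 and fell by 0.69 on the log2 scale (SE 0.11, limma adjusted p = 0.0138). Hnf4a was not called with the mean of its probe sets (-0.48) or with probe sets without a suffix letter (-0.41). Ahr, which encodes the dioxin receptor, differed by -0.71 ± 0.16 (limma adjusted p = 0.0408), and Ppara, the fasting receptor known to drive Fabp1, by 0.15 ± 0.21 and was not called. Pparg, Hnf4a and Ahr each lost their call without any 1 high-fat array, with limma adjusted p between 0.0508 and 0.149. In the same fits the genes called lower over all genes dropped from 244 to between 46 and 59, and those called higher dropped too. The Pparg call also ended after quantile normalization (limma adjusted p = 0.0514) and without normal diet 1 (0.0736), and Pparg was not tested with probe sets without a suffix letter. The Ahr call also ended after median centring (limma adjusted p = 0.0515) and without normal diet 2 (0.0797), and Ahr differed by -0.46 with the mean of its probe sets. Among known targets of PPARgamma shared with adipocytes 3 of 9 were called higher, the lipid droplet genes Cidea and Cidec and the phosphatidate synthesis gene Agpat2. Cidea read 3.38, 8.73 and 3.45 against 11.59, 11.53 and 11.24, with normal diet 2 far above the other normal diet arrays. The count of 3 was 5 without normal diet 2 and 0 without any 1 high-fat array, and Cidea was not called without normal diet 1 (limma adjusted p = 0.0624). Of 14 PPARalpha targets 1 was called, Fgf21, a liver hormone gene (1.43 ± 0.18). Their median difference was 0.55, and 7 of the 14 were higher in every high-fat array, against 21.1% of all tested genes. Normal diet 3 was low for this list. The mean level of the 14 was 9.64, 9.71 and 8.30 in normal diet 1, 2 and 3, and 9.87 to 10.16 in the high-fat arrays.

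The genes whose profile over the 6 arrays was most like that of a called gene or Cd36 were found by the root mean square distance between log2 profiles centred on their own mean. For Fabp2 they were Commd10 (distance 0.083), Micu2, Acaca, Nbdy and Gstm4 (0.104), and all 5 were called higher. For Slc27a4 they were Coq9 (0.037), Samm50, Ppif, Commd8 and Glrx5 (0.051), of which Coq9 and Commd8 were called. For Cd36 they were Thrsp (0.288), Vnn1, Cyp2c38, G6pc and Slc16a7 (0.373). Thrsp read 11.86, 12.93 and 9.36 under the normal diet and 13.19, 13.06 and 13.29 under the high-fat diet. G6pc was the 1 called gene of the 5 nearest to Cd36, and in all 5 normal diet 3 was the lowest array, as in Cd36. The choice by likeness fixes the shape of these profiles, so their resemblance carries no test.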

How the data were processed

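Per the submitters' processing notes, the authors made log2 expression levels with RMA (background correction, quantile normalization, summary of probes) in Affymetrix Expression Console 1.0, from biotin-labelled total RNA. Scanner files were not used here. Of 45101 probe sets, 64 controls were left out. Of the rest 34945 had 1 gene symbol in the platform annotation, 932 several and 9160 none here. Each gene took its probe set with the highest mean. Groups came from the sample titles. limma 3.58.1 (R 4.3.3) fitted diet with lmFit and eBayes, two-sided, per gene and, in a second fit, per probe set. The fit was tested on simulated data. With 3 against 3 arrays an exact permutation test of 1 gene cannot go below p = 0.10, so none is given. Precision is limited by the number of arrays.

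The members, the gene lists and the naming rule were chosen with earlier results of these data known. Named genes are the members, up to 4 called genes per list, those a member's role needs and the 5 nearest profiles. Of 179 list entries 158 matched a gene, 4 by an older symbol, and the others were not used here. Probe sets of 1 gene were compared in the second fit. Alternatives were other level filters, variance models, array weights, scalings, probe set choices, a block for the replicate number, and leaving out each array. Python 3.11.15, pandas 2.3.3 and matplotlib 3.10.9 made tables and figures.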

Additional observations from a re-analysis of the deposited data

How the results depend on the processing

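Over the differences of the 10 genes, their 17 tested probe sets and the 12 called genes of the other lists with Lsr, 500 alternative values kept direction and call, 66 lost a call, 21 gained one and 14 changed sign. Quantile normalization, cyclic loess and the replicate block each left 1 of the 10 genes called higher, Fabp2, and leaving out 1 array gave 0 to 4. Over all genes, leaving out 1 array gave 123 to 933 called higher and 46 to 312 lower, and over probe sets 132 to 1184 and 54 to 448. In the other lists it gave 1 to 15 higher and 0 to 2 lower. The lowest count of genes called higher came without high-fat 3 (123), then high-fat 2 (162) and high-fat 1 (213). Array weights gave 373 genes called lower, and median centring, the mean of probe sets and probe sets without a suffix letter each gave 1 other list gene called lower. Of the called genes, 66.4% were higher after quantile normalization, 69.8% after cyclic loess and 82.9% after median centring. No scaling moved the median of all genes by over 0.05.

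Changes of sign were as follows. Slc27a2 (probe set 1416316_at) was 0.10 without normal diet 1, with a range of -0.29 to 0.10 over left-out arrays. Fabp5 was 0.40 with array weights and ran from -0.78 to 0.59 over left-out arrays. In the fit of single probe sets, its probe set 1416021_a_at was 0.36 with array weights, and 1416022_at was 0.44 with array weights, 0.011 after median centring, 0.033 without high-fat 3 and between -0.53 and 0.74 over left-out arrays. Vldlr was -0.17 with probe sets without a suffix letter. The Fabp1 probe set 1448764_a_at was -0.087 after cyclic loess, and between -0.016 and 0.094 over left-out arrays. The cause was not tested.

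The replicate numbers did not pair the arrays. This was checked on each array's deviations from the gene means of its diet, not on the levels themselves. The deviations of same-numbered arrays correlated at -0.012, 0.036 and 0.10, and not every array correlated best with its own number. With the number as a block 714 probe sets were called higher and Slc27a4 (limma adjusted p = 0.0650), Gpihbp1 (0.0851), Mylip (0.0645), Cidec (0.0549) and Agpat2 (0.0612) were not called, while Lsr was called lower (0.0444) and the Cd36 probe set 1450884_at higher (0.0446). With the mean of probe sets Vldlr, and with probe sets without a suffix letter Fabp4, fell below the level filter. With 3 arrays per diet no group was large enough for a test of single arrays.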
